A study of Mus musculus with 4 samples.

Results

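The CpGs described here are autosomal positions at which reads piled up far beyond the usual depth, outside the ribosomal DNA interval of chromosome 17. A CpG was a member when it had at least 50 reads in both wild-type libraries, which held for 332 of 1441257 autosomal CpGs covered in any library. Members lying at most 1000 bp apart were joined, giving 178 stretches on 19 autosomes. Of these, 105 held a single member and 34 held at least 3, and the longest spanned 280 bp. Members were thus selected on their coverage in the wild-type libraries, which is given only as a description. Methylation and the depth of the Sca1-BCL6Δ libraries played no part in the choice.

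The study compared 4 pooled libraries, 1 for each condition, all on a CBAxC57BL/6J background. Haematopoietic stem and progenitor cells (HSPCs) were sorted from bone marrow as Sca1+Lin- cells, and mature B cells from peripheral blood as B220+ cells, each from wild-type and from Sca1-BCL6Δ mice. In Sca1-BCL6Δ mice a floxed Bcl6 cDNA is driven by the Sca1 promoter, and Cre made from the Cd79a locus (mb1-Cre) is meant to excise it once cells enter the B lineage. Bcl6 encodes a transcriptional repressor known from germinal centre B cells and their lymphomas. DNA of 6 to 9 mice was pooled for each library. Ages, and which transgenic line gave the pools, were not given in the sources used here. No condition had a replicate library, so every test below compares the reads of 2 libraries and not conditions. Values come in a fixed order, HSPCs before B cells and, within each, wild-type before Sca1-BCL6Δ.

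Reduced representation bisulfite sequencing cuts DNA at the sites of MspI and TaqI and reads the fragment ends, so reads stack at fixed positions. Repeats present in many near-identical copies, such as the satellites around mouse centromeres, can send the reads of all copies to the few copies in the assembly. Satellite DNA is heavily methylated in most normal somatic cells. Copy number was not measured here, so the label of high copy is not tested and the stretches are described by their depth. An mm9 sequence or gene annotation was not used here, so stretches are named by mm9 position only, and whether they lie in genes was not determined.

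The pile-ups were deep, and no stretch spanned more than 280 bp. Members had medians of 170 and 88.5 reads in HSPCs and 163.5 and 109 in B cells, where all covered autosomal CpGs had medians of 6 and 4, and 9 and 5. Of the 332 members, 202 also had at least 50 reads in both Sca1-BCL6Δ libraries. Such CpGs numbered 224 in all, so the shared ones were 90.2% of that list and 60.8% of the members. A footprint is a set of reads with the same first CpG, last CpG and strand. A single footprint gave over 90% of the reads in 140 and 144 of 178 stretches in HSPCs, and in 135 of 178 and 140 of 177 in B cells. Where reads held a lone CpG on the same strand, this follows from the definition. As 105 of the 178 stretches held a single member, these counts do not measure how narrow the pile-ups were. Reads of a footprint need not be separate molecules, so intervals below cover counting error only.

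Of the stretches, 7 began within the first 3200000 bp of their chromosome, the centromeric end of mouse autosomes. That is 3.93% of stretches. Counted by CpG, 20 of the 332 members lay there, against 0.0977% of all covered autosomal CpGs. The position was looked at after the stretches were known and was not tested.

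**Figure D1:**
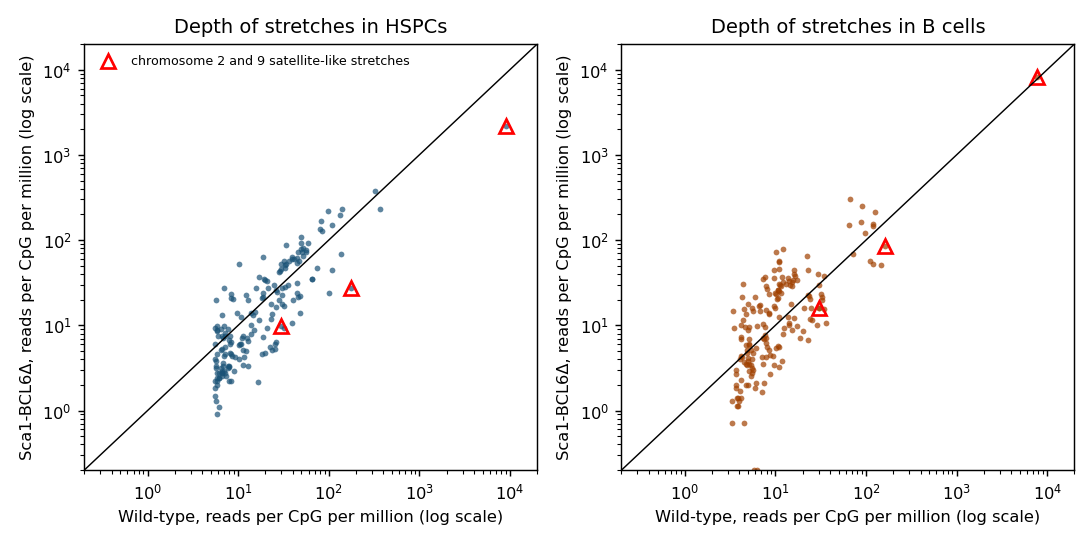
Depth of each stretch in CPM (log scales), Sca1-BCL6Δ (vertical) against wild-type (horizontal), in HSPCs (left) and B cells (right). Points are stretches, the line marks equal depth, and open triangles are the 3 stretches of the chromosome 2 and 9 satellite-like intervals, which lie below the line in HSPCs. On the lower edge of the B cell plot sit the chromosome 13 stretches at 120277881 and 120280872, with no reads and a median of 1 read in Sca1-BCL6Δ B cells.

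The satellite-like interval of chromosome 2 held 7 members in 2 stretches, among them the deepest CpG of each library. That CpG, at 98506660, had 232259 and 33956 reads in HSPCs and 329957 and 165482 in B cells. Its methylation was 84.1% (95% Wilson interval 83.9 to 84.2) and 97.1% (96.9 to 97.2) in HSPCs, and 98.1% (98.1 to 98.2) and 98.6% (98.6 to 98.7) in B cells. The level of the wild-type HSPC library was the only one below 97%. Other CpGs with a pooled B cell level of 90 to 100% were also lower in wild-type than in Sca1-BCL6Δ HSPCs. Their mean difference was 13.05 points (SD 16.3).

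Depth is compared here in CPM, the reads of a CpG scaled to all autosomal CpG reads of its library. The stretch from 98506419 to 98506661 had 9104 and 2205 CPM in HSPCs, a ratio of 0.24, and 7742 and 8221 CPM in B cells, a ratio of 1.06. The neighbouring stretch from 98502786 to 98502952 had ratios of 0.16 in HSPCs and 0.53 in B cells. Over all stretches the median ratio was 0.71 in HSPCs and 0.98 in B cells. Since members were chosen for high wild-type depth, the choice itself favours ratios below 1. Together the members took 3.97 and 2.07% of autosomal CpG reads in HSPCs, and 3.25 and 3.76% in B cells.

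The 4 CpGs from 98502786 to 98502952 averaged 85.9% (SD 2.7 over CpGs) and 96.3% in HSPCs, and 96.2 and 95.5% in B cells. Wild-type HSPCs again had the lowest level. The HSPC difference, Sca1-BCL6Δ minus wild-type, was 10.4 points. Less the mean of other CpGs in the same 10-point class of B cell level, it was -2.63. For the stretch from 98506419 to 98506661 these values were 7.46 and -5.59. On chromosome 9 the satellite-like interval held 1 member, at 3000399, with 254 of 265 and 53 of 53 methylated reads in HSPCs, and 448 of 454 and 111 of 114 in B cells. These are 95.8% (95% Wilson interval 92.7 to 97.7), 100% (93.2 to 100), 98.7% (97.1 to 99.4) and 97.4% (92.5 to 99.1). The 4 intervals overlap, and the CpG was called in none of the comparisons below.

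Most stretches were either little or highly methylated. Among stretches with a level, 71 of 178 and 70 of 174 were under 20% in HSPCs, and 70 of 178 and 69 of 170 in B cells. Over 80% were 41 and 77 in HSPCs, and 83 and 72 in B cells. In wild-type HSPCs 66 stretches lay in between, against 27, 25 and 29 in the other libraries. CpGs outside the members also lay in between most often in that library, as given below. Medians over stretches were 54.6 and 69.6% in HSPCs, and 69.97 and 66.5% in B cells.

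**Figure D2:**
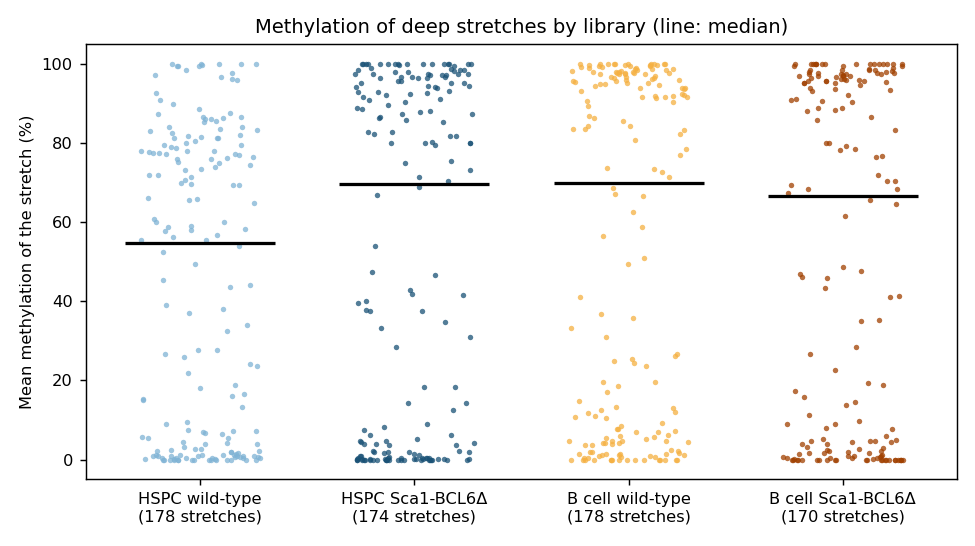
Mean methylation (%) of every stretch in each of the 4 libraries, over members with at least 10 reads. Each point is a stretch and the black line is the median, which lies at 54.6% in wild-type HSPCs and between 66.5 and 69.97% in the other libraries.

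Members were set against other CpGs at equal depth, with 10 reads drawn for each CpG in each library. Of 315 members, 22.5 and 36.2% exceeded 80% methylation in HSPCs, and 39.4 and 36.5% in B cells. Of 69635 other CpGs the shares were 7.81 and 15.0%, and 16.1 and 16.1%. From 20 to 80% methylation lay 36.2 and 25.4% of members in HSPCs, and 21.6 and 26.35% in B cells. For other CpGs these shares were 34.6 and 22.0%, and 21.55 and 19.75%. Wild-type HSPCs thus had the largest intermediate share in both sets. The mean absolute difference between genotypes was 10.95 percentage points in members and 11.04 in other CpGs for HSPCs, and 8.35 and 8.05 for B cells. These absolute differences include the counting error of 10 reads. The signed HSPC difference was 7.59 points in members and 0.96 in other CpGs, and the signed B cell difference was 0.48 and -0.41. Level was not matched between these sets, and members were more often highly methylated. At full depth the mean HSPC difference over stretches was 6.95 points (SE 0.78). Less the mean of other CpGs in the same 10-point class of B cell level, it was 0.97 (SE 0.67). At the coverage limit, 29 CpGs whose lower wild-type depth was 50 to 54 reads averaged 80.6% in wild-type B cells, and 43 CpGs at 45 to 49 reads averaged 54.5%.

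The 3 lowest and 3 highest stretches of at least 3 members were named by their level, which is therefore a description. Chromosome 5 from 42099008 to 42099021 had no methylated read in any library, at 104 to 320 reads per CpG. A count of 0 at its shallowest CpG, in wild-type B cells, allows up to 2.88%. Chromosome 9 from 114310303 to 114310317 had 0.51 and 0.00% in HSPCs, and 0.56 and 0.47% in B cells. Chromosome 4 from 49857671 to 49857688 had 0.93 and 2.22%, and 4.26 and 2.17%.

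The highest was chromosome 14 from 81901382 to 81901416, with 97.6 and 99.0% in HSPCs and 99.5 and 97.6% in B cells. Chromosome 6 from 67542067 to 67542088 had 96.6 and 98.4%, and 98.0 and 98.3%. Chromosome 10 from 67874191 to 67874218 had 96.2 and 95.1%, and 100 and 96.1%. In these 6 stretches all libraries stayed within 5 percentage points of each other.

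Neighbouring CpGs of a stretch could hold very different levels. On chromosome 7, from 92526758 to 92526790, the first CpG had 41 of 165 and 82 of 333 methylated reads in HSPCs (24.8 and 24.6%), and 46 of 184 and 143 of 543 in B cells. The 4 CpGs after it had 79.4 to 90.6% in wild-type HSPCs and 94.6 to 99.5% in the other libraries. Of the reads with at least 3 CpGs, 76.1 to 78.2% were mixed, with both methylated and unmethylated CpGs. By CPM, Sca1-BCL6Δ depth was 3.33-fold the wild-type depth in HSPCs and 6.42-fold in B cells.

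The stretches with most members covered the whole range of levels. The 10 CpGs of chromosome 11 from 3093431 to 3093631 averaged 83.6 and 88.5% in HSPCs, and 91.7 and 90.4% in B cells. The 6 CpGs of chromosome 7 from 89920470 to 89920515 had 90.9 and 98.4%, and 97.8 and 98.8%. In both, wild-type HSPCs had the lowest level. Less the mean of other CpGs in the same class of B cell level, their HSPC genotype differences were -8.77 and -5.56 points.

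Others of these were low. The 8 CpGs of chromosome 16 from 11144182 to 11144215 had 5.47 and 7.55% in HSPCs, and 6.95 and 9.10% in B cells. The 8 CpGs of chromosome 17 from 36368396 to 36368428 had 6.91 and 6.15%, and 7.34 and 5.02%. The SD of levels over the CpGs of either stretch was 1.87 to 5.81 points, which is not the spread of the differences. On chromosome 16 the genotype differences were 2.08 points (SD 2.2 over CpGs) in HSPCs and 2.15 (SD 1.0) in B cells. On chromosome 17 they were -0.76 and -2.32 points. On chromosome 15 from 74818862 to 74819128, 6 CpGs had 13.3% in wild-type HSPCs and 10.4% in wild-type B cells, and the Sca1-BCL6Δ libraries had medians of only 13 and 17 reads there.

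A group of 9 stretches had a median of at least 500 reads in each of the 4 libraries, a limit chosen after the data were seen. Near full methylation were the chromosome 2 stretch above and chromosome 1 from 196480359 to 196480374, the latter with 87.6 and 96.7% in HSPCs and 97.9 and 98.1% in B cells. Low were the chromosome 16 stretch above and single CpGs at chromosome 2, 172922036, and chromosome 8, 14292478, which had at most 1.83 and 0.51%. The other 4 were intermediate.

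In those 4 intermediate stretches Sca1-BCL6Δ means lay above wild-type means in both cell types. The 5 CpGs of chromosome 13 from 44965001 to 44965024 averaged 24.0 and 37.4% in HSPCs, and 25.5 and 46.2% in B cells. The genotype differences were 13.4 percentage points (SD 2.4 over CpGs) and 20.8 (SD 2.2). The first CpG was the highest of the 5 in every library, with 35.97 to 55.2%.

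On chromosome 11, 11 CpGs from 108873012 to 108873228 had 25.9 and 34.7% in HSPCs, and 26.6 and 40.98% in B cells, with genotype differences of 8.84 (SD 2.8) and 14.3 points (SD 2.5). The wild-type libraries differed there by 0.75 points (SD 1.3). Chromosome 18 from 68851776 to 68851808 had 27.7 and 41.85%, and 35.7 and 47.0% over 6 CpGs. Chromosome 6 from 3151480 to 3151496 had 33.9 and 37.8%, and 30.9 and 43.3% over 3 CpGs, with the smallest HSPC difference of the 4, at 3.89 points.

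The excluded ribosomal DNA interval is given beside these values. Its 197 CpGs with at least 50 reads in both wild-type libraries averaged 23.9% (SD 12.4 over CpGs) and 33.75% (SD 13.1) in HSPCs, and 25.6% (SD 10.7) and 38.1% (SD 11.5) in B cells. Whether the 4 stretches share sequence with ribosomal DNA was not tested.

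**Figure D3:**
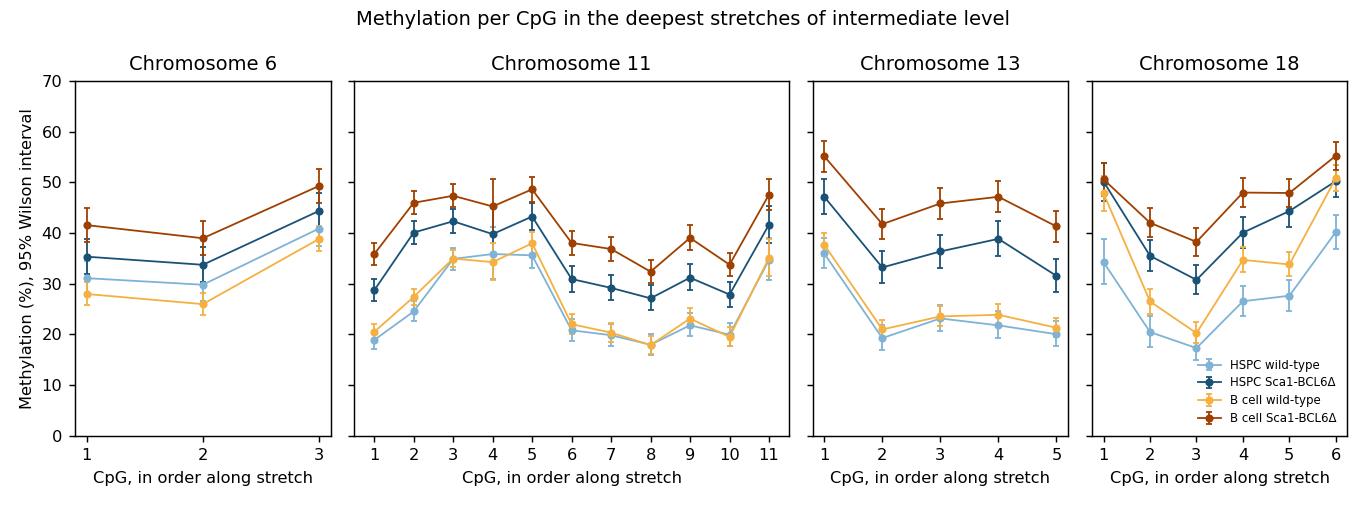
Methylation (%) of each CpG in the 4 intermediate stretches with a median of at least 500 reads in every library, in order along the stretch. Points are CpGs with 95% Wilson intervals and colours are libraries; on chromosome 13 both Sca1-BCL6Δ levels lie above both wild-type levels at all 5 CpGs.

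Single reads of these stretches show how the levels were made up. On chromosome 13, among reads with at least 3 CpGs, 13.9% of 977 and 21.8% of 833 were methylated at every CpG in HSPCs, and 13.4% of 1812 and 32.6% of 1034 in B cells. Fully unmethylated reads made up 58.6 and 45.1%, and 53.4 and 38.2%. Mixed reads made up 27.4 and 33.0%, and 33.2 and 29.2%.

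The share of fully methylated reads was higher in Sca1-BCL6Δ libraries at the other 3 stretches too. It was 14.2 and 21.8% in HSPCs and 13.6 and 27.8% in B cells on chromosome 11, 15.3 and 24.2% and 15.8 and 32.4% on chromosome 18, and 28.8 and 30.3% and 24.0 and 36.4% on chromosome 6. On chromosome 18 mixed reads reached 50.8% in wild-type B cells. The largest footprint there, taken in each library on its own, held 51.4 and 68.5% of reads in HSPCs and 52.1 and 75.1% in B cells. The mix of footprints thus differed between libraries, and its part in the methylation difference was not tested. Pooled over members, 24.5 to 29.6% of such reads were mixed. The share was 27.7 to 33.2% in the ribosomal DNA interval and 11.5 to 17.9% among other autosomal reads. Such reads were 13223 of 296446 and 10803 of 67979 member reads in HSPCs. In B cells they were 19312 of 405713 and 13681 of 206547. Stretches whose reads held fewer CpGs, such as chromosome 2 from 98506419, gave none, so the pooled share does not describe every stretch.

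**Figure D4:**
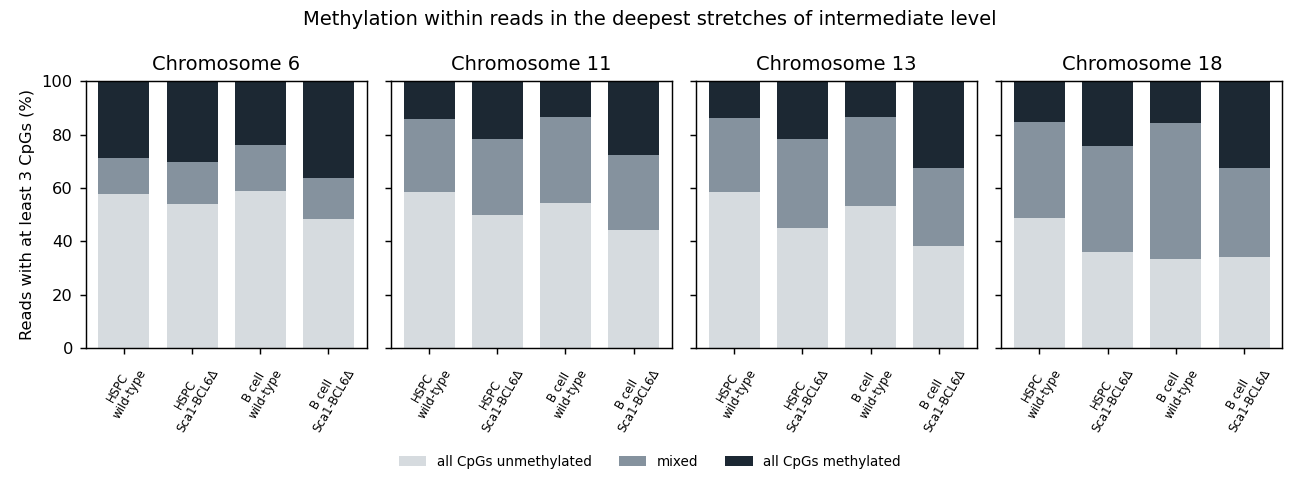
Shares (%) of reads with at least 3 CpGs that were unmethylated at all CpGs, mixed, or methylated at all CpGs, for the 4 intermediate deep stretches and 4 libraries. Bars sum to 100; on chromosome 13 the fully methylated part is 13.4 to 13.9% in wild-type and 21.8 to 32.6% in Sca1-BCL6Δ libraries.

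The HSPC genotype comparison set the cells in which the transgene is meant to be active against their wild-type counterparts. Of 326 tested members, 7 were called higher in Sca1-BCL6Δ HSPCs and 0 lower. That is 2.15%, where 0.0371% of all 99699 tested CpGs were called (0.0251% higher, 0.012% lower). A call needed an adjusted p below 0.05 by Fisher's exact test on reads, adjusted over all tested CpGs, and 20 percentage points. Members are deeper than other CpGs. With at least 20 reads required in both libraries 12 of 278 members were called, where 1.05% of 2946 CpGs were called, and with coverage thinned to 20 reads 0 of 326, where 0.00502% of 99699 were.

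The chromosome 14 stretch from 7892155 to 7892171 held 3 of the calls. Its 3 CpGs averaged 39.1 and 80.2% in HSPCs, and 72.7 and 76.5% in B cells. The HSPC difference was 41.1 percentage points (SD 7.6 over CpGs that share reads), with adjusted p = 5.0e-12 to 2.2e-07 by Fisher's exact test. Wild-type HSPCs were the library apart: 40.3% of their 412 reads with at least 3 CpGs were fully unmethylated, against 4.72 to 5.90% in the others.

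The single member of chromosome 9 at 86617440 had 16 of 237 (6.75%) and 15 of 35 reads (42.9%) methylated in HSPCs, and 21 of 439 (4.78%) and 10 of 72 (13.9%) in B cells. The HSPC difference had adjusted p = 0.00014 by Fisher's exact test. Here the Sca1-BCL6Δ HSPC library was apart, with the fewest reads of the 4.

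The other calls were chromosome 6, 8857603 (59.1 and 85.4% in HSPCs), chromosome 8, 20023098 (69.7 and 97.9%), and chromosome 10, 35555625 (71.9 and 98.7%). Highly methylated CpGs outside the members were also higher in Sca1-BCL6Δ HSPCs. Where the pooled B cell level was 90 to 100%, other CpGs differed by a mean of 13.05 points (SD 16.3, 17474 CpGs) and members by 10.7 (SD 8.6, 125 CpGs). Less the mean of other CpGs in the same 10-point class, the calls at chromosomes 6, 8 and 10 came to 11.1, 15.2 and 13.7 points. The 4 calls at chromosomes 14 and 9 kept 21.6 to 37.0.

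Over 174 stretches the mean HSPC difference was 6.95 points (SE 0.78 over stretches), with 107 stretches higher, 52 lower and 15 equal. Less the mean of other CpGs of the same class it was 0.97 (SE 0.67). Pooling the reads of all members gave -13.84 points. In wild-type HSPCs 232259 of 357900 member CpG reads came from the methylated CpG of chromosome 2, and without that interval pooled reads gave 4.00.

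**Figure D5:**
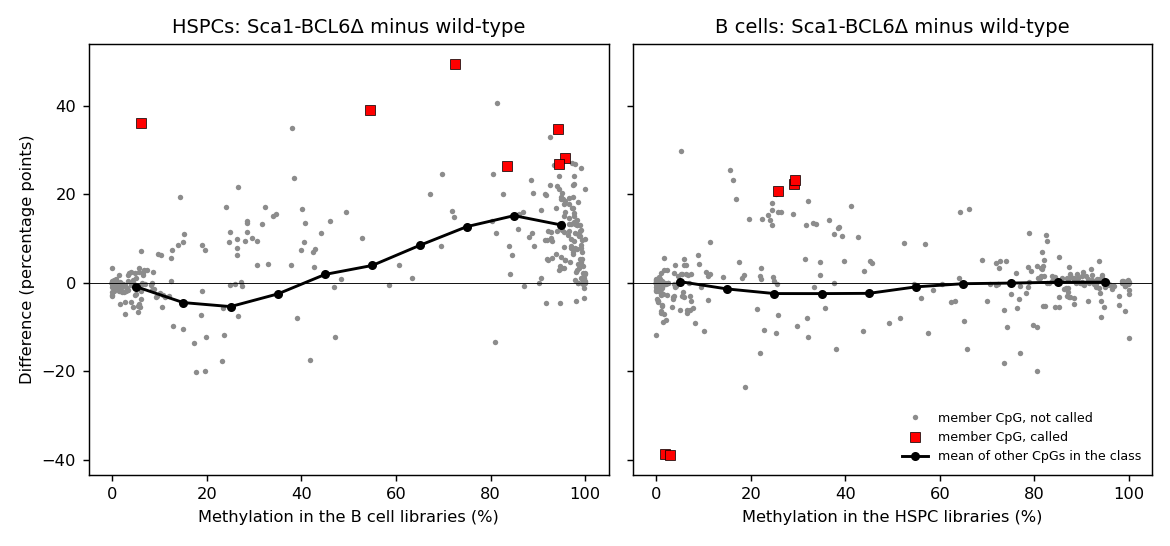
Sca1-BCL6Δ minus wild-type methylation (percentage points) of each member in HSPCs (left, against the pooled level in B cells) and in B cells (right, against the pooled level in HSPCs). Red squares are called members, grey points the others, and the black line joins the means of all other CpGs per 10-point class; in HSPCs the line reaches 15.2 points in the class of 80 to 90%.

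In B cells, in which the transgene is meant to be gone, 3 of 320 tested members were called higher in Sca1-BCL6Δ mice and 2 lower. That is 1.56% of members, where 0.0175% of 194577 tested CpGs were called (0.0103% higher, 0.0072% lower). Depth differs here too. With at least 20 reads required in both libraries 5 of 291 members were called, where 0.23% of 10448 CpGs were. With coverage thinned to 20 reads 0 of 320 members were called, where 0.00206% of all tested CpGs were. The higher calls were CpGs 2 to 4 of the chromosome 13 stretch, with 20.98 to 23.9% in wild-type and 41.8 to 47.2% in Sca1-BCL6Δ B cells. At the highest of them, 44965018, adjusted p was 4.9e-31 by Fisher's exact test on 1763 and 986 reads.

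Both lower calls lay on chromosome 11, at 120677491 and 120677495. At the former, 28 of 67 reads (41.8%, 95% Wilson interval 30.7 to 53.7) were methylated in wild-type and 7 of 214 (3.27%, 1.59 to 6.60) in Sca1-BCL6Δ B cells. In HSPCs 1 of 63 and 3 of 148 reads were methylated there. Wild-type B cells were the library apart (adjusted p = 8.0e-11 within B cells, Fisher's exact test).

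In that library 27 of 67 reads carried both CpGs methylated, 39 neither and 1 a single one. All 67 shared a footprint. By CPM the stretch was 6.87-fold deeper in Sca1-BCL6Δ B cells, and the part of amplification in the difference was not tested.

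The mean B cell genotype difference over 170 stretches was -0.72 points (SE 0.52), with 67 higher, 87 lower and 16 equal. It was 0.33 over members in place of stretches, -1.52 with pooled reads, and 6.28 with pooled reads without the chromosome 2 interval. Its direction thus depended on how CpGs were combined. Pooling weights CpGs by the depth of each library, so a pooled difference also holds differences in depth. Sca1-BCL6Δ levels were higher by at least 5 points in both cell types at 11 of 167 stretches, and lower by as much in both at 5. The matching share over other CpGs was not counted. Highly methylated CpGs outside the members were also higher in Sca1-BCL6Δ HSPCs, so these counts are only a description.

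The genotype differences of both cell types were also set against each other at each CpG. Of 315 members 2 were called, or 0.635%, where 0.00285% of 70155 CpGs were called. That overall share consists of the same 2 members, as no CpG outside the members was called. Members are deeper than other CpGs, which makes a call easier, and depth was not matched here. The 2 called CpGs lay at chromosome 6, 8857603, and chromosome 14, 7892155, and at both the HSPC difference was the larger.

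Wild-type B cells were set against wild-type HSPCs to follow methylation along B cell development. Here 31 of 332 members, in 27 stretches, were called higher in B cells and 0 lower. That is 9.34% of members, where 0.725% of 283684 tested CpGs were called (0.674% higher, 0.0515% lower). The median level of the called members was 69.4% in wild-type HSPCs against 95.1% in wild-type B cells. Among them were both CpGs of chromosome 7 from 71629932 to 71630211, with means of 69.4 and 92.4% in HSPCs, and 93.1 and 95.4% in B cells. The Sca1-BCL6Δ HSPC level there rests on 29 and 21 reads.

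Of the 31 calls, 3 kept 20 points beyond the mean of other CpGs in their class, the chromosome 11 pair above and chromosome 14, 7892155. That is 3 of 332 members, where 0.43% of all tested CpGs kept as much. With the Sca1-BCL6Δ HSPC library as the HSPC sample 3 of 326 members were called, 2 higher and 1 lower, where 0.0777% of 131255 CpGs were called. With at least 20 reads required in both wild-type libraries 36 of 332 members were called, where 3.38% of 25716 CpGs were called. The mean difference over 178 stretches was 8.65 points (SE 0.77). It was 1.09 (SE 0.62) less the class mean, and 1.38 (SE 0.63) with the Sca1-BCL6Δ HSPC library.

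Between B cells and HSPCs of Sca1-BCL6Δ mice 0 of 315 members were called, where 0.0183% of 98115 CpGs were called (0.00917% higher, 0.00917% lower; Fisher's exact test on reads). An unadjusted p below 0.05 was reached by 45 members, or 14.3%, and by 1.72% of all tested CpGs. The mean difference over 167 stretches was 0.27 points (SE 0.52), with 83 higher, 62 lower and 22 equal. At the 4 intermediate deep stretches B cells were higher by 5.16 (chromosome 18) to 8.81 points (chromosome 13).

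Depth was also compared between genotypes with the CPM of both cell types averaged. The 3 stretches with the largest fold by that measure were those of chromosome 7 at 92526758 and chromosome 11 at 120677491, both above, and chromosome 11 from 103934286 to 103934312. At the last, Sca1-BCL6Δ depth by CPM was 5.14-fold the wild-type depth in HSPCs and 7.06-fold in B cells. Its 2 CpGs averaged 32.4 and 28.6% in HSPCs, and 26.2 and 35.1% in B cells, and neither was called. Chromosome 16 from 35981708 to 35981907 was shallower, with ratios of 0.50 and 0.34, and its 5 CpGs had 9.62 and 18.2% in HSPCs, and 14.9 and 18.8% in B cells. Within B cells alone the gap was wider at a pair of chromosome 13 stretches, named after their values were seen. From 120277881 to 120277915 the median was 87 reads in wild-type B cells but 0 in the Sca1-BCL6Δ library, and from 120280872 to 120280895 it was 96 and 1. In HSPCs these stretches had medians of 64 and 24, and 61 and 19.5 reads. Depth was not tested, since each condition had 1 library.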

How the data were processed

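Bisulfite libraries of 4 conditions were analysed. Per the labels' protocols, fragments of 40 to 350 bp from MspI and TaqI digestion were kept and amplified over 18 PCR cycles. Per the submitters' methods text, an in-house Zymo Research pipeline aligned reads to predicted fragment ends and dropped reads whose next best match was close; removal of duplicates was not recorded. The build was mm9, per the submitters' processing notes. The deposited CpG tables hold methylated and total read counts per CpG and, per the file headers, a score for mean methylation, which matched those counts at 100% of CpGs. The deposited read tables give the percent of methylated CpGs in each read and the count of its CpGs.

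Positions are BED starts plus 1. Autosomal CpGs having 10 reads or more in both libraries entered a two-sided Fisher's exact test (Python 3.11.15, numba 0.67.0), with Benjamini-Hochberg adjustment over all of them; the test was checked on simulated reads. Stretch levels are means over members of 10 reads or more. Level classes were set by the libraries outside a comparison. The comparison of genotype differences used the z of the difference of log odds ratios (0.5 added per count). Autosomal mean coverage was 7.51 and 5.50 reads in HSPCs, and 11.0 and 6.50 in B cells. Stretches named were those of the chromosome 2 and 9 intervals, the 10 with most members, up to 3 per comparison and direction with 2 or more calls, and the 3 highest, lowest, widest in range and most different in depth. Others named were chosen after their values were seen. Members, lists and rules were chosen with earlier results of these data known.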

Additional observations from a re-analysis of the deposited data

Results flagged for a closer look

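At 2 members the genotype difference itself differed between HSPCs and B cells, by the test on log odds ratios adjusted over 70155 CpGs. At chromosome 14, 7892155, Sca1-BCL6Δ minus wild-type was 49.5 percentage points in HSPCs and 4.84 in B cells, so the B cell minus the HSPC difference was -44.65. Methylated reads there were 136 of 419 and 59 of 72 in HSPCs, and 209 of 294 and 82 of 108 in B cells.

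At chromosome 6, 8857603, the genotype difference was 26.3 points for HSPCs but -4.32 for B cells. The B cell minus the HSPC difference was -30.59. Methylated reads were 532 of 900 and 111 of 130 in HSPCs, and 1430 of 1695 and 317 of 396 in B cells. At both CpGs wild-type HSPCs had the lowest level. That library was also the lower HSPC library at highly methylated CpGs outside the members, by a mean of 13.05 points where B cells had 90 to 100%, and its part in these values was not tested.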

How the results depend on the processing

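The number of members hung on the coverage minimum, with 2275 members in 1312 stretches at 30 reads and 195 in 96 at 100 reads, and 104 stretches when the Sca1-BCL6Δ libraries chose them. Shares in parentheses are of all tested CpGs under the same setting. Members called in the HSPC genotype comparison numbered 12 with at least 20 reads in both libraries (1.05%), 0 with coverage thinned to 20 reads (0.00502%), 29 at 10 percentage points (0.142%) and 4 beyond the level class background (0.0341%). In B cells they numbered 0 when thinned (0.00206%), 24 at 10 points (0.0889%), 1 among CpGs more than 50 bp apart (0.0104%) and 3 among members of 100 reads (0.0175%). In wild-type development they numbered 36 with at least 20 reads (3.38%), 0 when thinned (0.222%), 64 at 10 points (0.738%), 14 among members of 100 reads (0.725%), 3 beyond the background (0.43%) and 3 with Sca1-BCL6Δ HSPCs (0.0777%). In Sca1-BCL6Δ development 1 was called with at least 20 reads (0.151%). By construction, thinning leaves fewer reads at each CpG.

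The mean HSPC genotype difference turned to -13.84 points with pooled reads, was 4.00 without the chromosome 2 interval and 0.97 less the background. For B cells it was 0.33 over members, -1.52 with pooled reads and 6.28 with pooled reads without chromosome 2. Wild-type development gave 14.25 pooled, 10.65 pooled without chromosome 2, 1.09 less the background, 5.31 among members of 100 reads and 1.38 with Sca1-BCL6Δ HSPCs. Sca1-BCL6Δ development gave 26.58 and 12.80 pooled, with and without chromosome 2, and -0.83 less the background. The causes were not tested, except that leaving out the chromosome 2 interval moved the pooled values. Chosen after seeing the data were the calls beyond the background, pooled reads without chromosome 2, and the settings with Sca1-BCL6Δ libraries in place of wild-type ones. Of 92 differences of the 23 stretches named by rule, 6 moved with pooled reads and 34 less the background. Moved means by more than the 95% counting error of 1 CpG at the median depth of the stretch. That limit is not the spread over CpGs, and it vanishes where no read was methylated. No paired analysis was possible because each condition had 1 library and the labels give no replicate numbers.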
